A study of Mus musculus with 6 samples.

Results

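The regions described here are stretches of chromatin that carried H3K27ac peaks in differentiating C2C12 cells and lay far from any peak of the proliferating cells. C2C12 is a mouse myoblast line that leaves the cell cycle and fuses into myotubes in culture. H3K27ac (histone H3 acetylated at lysine 27) was measured by ChIP-seq at 3 stages: proliferating myoblasts, 36 h of differentiation and 72 h of differentiation. Each stage had 1 H3K27ac library, for which DNA of 4 ChIP assays was pooled, and 1 input library, whose reads were not analysed here. All groups are the same line with no other genotype or agent in their labels. Their comparison bears on how the acetylation landscape is remodelled in myogenesis, within a study of the transcription factor TAp63.

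The members were chosen by the peak calls themselves. Overlapping peaks of the 3 lists were merged, and a region was taken if it had a peak at 36 h and at 72 h, none in proliferation, and no proliferation peak within 12.5 kb of either edge. This left 10696 of 112926 merged regions (9.47%), and 42.5% (95% Wilson interval 41.9 to 43.1%) of the 25164 regions that both later lists held and the proliferation list did not. The other 14468 of these, with a proliferation peak within 12.5 kb, are termed near regions below, and the members far regions. Absence from the proliferation list and the distance are therefore properties of the choice, not findings. All positions are on build mm9 and count from 1. The reference tables at hand are of another build, so no position was assigned to a gene and no sequence was read.

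H3K27ac is laid down by the acetyltransferases p300 and CBP and marks active promoters and enhancers, whereas inactive or merely primed enhancers lack it. During myogenesis the factors of the MyoD family and MEF2 bind enhancers of muscle genes and recruit these acetyltransferases. Many muscle genes lie in groups of such enhancers that become acetylated together. Because the mark covers nucleosomes, a peak often flanks a nucleosome-poor stretch, and 1 element can appear as several narrow peaks.

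The libraries were of similar depth but their peak lists differed in length, and the local background at members was about that at the other peaks. The proliferation list, absence from which defines the members, was the shortest. It held 57101 peaks, compared with 89717 at 36 h and 97144 at 72 h. Its smallest −log10 p was 3.24, compared with 2.99 and 2.92, so a call there needed a somewhat lower p. Read totals were not given, so summit fragments (ChIP fragments stacked at the top of a peak) and the local background were recovered from the authors' fold and p-value of each peak. The 36 h library had 1.20 times the ChIP depth of the proliferation library, and the 72 h library 1.1 times. The median local background at members was 1.02 times the genome background at 36 h and 1.09 times at 72 h. Over all peaks of the 36 h library it was 1.06 times, over those of the 72 h library 1.15 times, and over the peaks of the proliferation library 1.93 times. The files give no proliferation background at the members themselves, since no peak was called there. When the summit fragments of the later libraries were scaled to the proliferation depth, the rule gave 10442 members; with their background lifted as well, to no less than the median at proliferation peaks, it gave 9002. Both settings were chosen after seeing the data.

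Far regions were spread over all assembled chromosomes in the lists. On assembled chromosomes there were 10674 members, and 22 lay on 7 unplaced contigs. Their share of all merged regions ran from 8.39% on chromosome 15 (interval 7.71 to 9.13%) to 11.6% on chromosome X (10.5 to 12.9%). Chromosome 1 held the most, with 922, and chromosome 19 the fewest, with 285. The intervals cover counting error only.

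By the rule every member lay more than 12.5 kb from a proliferation peak, and some were in stretches with none for megabases. The median distance was 33.2 kb, with quartiles of 19.9 and 63.6 kb. A distance of over 100 kb was found for 1463 members (13.7%), and of over 1 Mb for 20. Like shares for far regions called at a single later stage are not given here. Another 7 members lay on contigs with no proliferation peak at all. The distribution of all gained regions had no gap at the limit of the rule. The 3 members just inside it lay 12503 bp (chr15:27509754-27512077), 12507 bp (chr8:72839658-72840054) and 12507 bp (chr11:64882150-64884336) from a proliferation peak. Their summit fragments numbered 30, 13 and 28 in the 36 h library, then 15, 26 and 71 in the 72 h library. The 3 regions just outside it, at 12500, 12498 and 12497 bp, had 14, 16 and 29 fragments at 36 h and 19, 20 and 35 at 72 h. The 2 sides were thus mixed in strength.

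**Figure D1:**
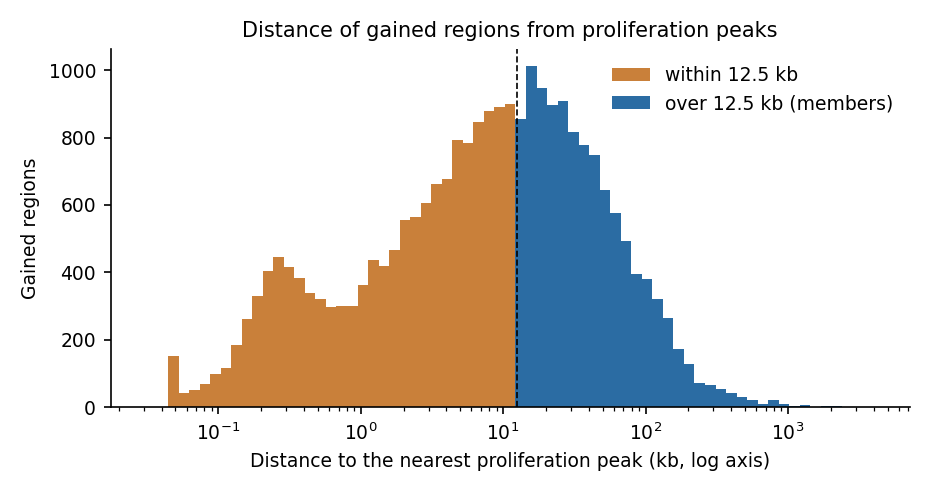
Histogram of the distance from each gained region to the nearest proliferation peak (x axis, kb, log axis; y axis, number of regions), with the 14468 near regions in orange and the far regions in blue. The dashed line is the limit of 12.5 kb; the counts run on across it, the far regions have a median of 33.2 kb, and distances under 50 bp are drawn at 50 bp.

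The 5 members farthest from proliferation peaks were of low to middling signal, and most were short. The farthest, chr15:19787348-19787683, lay 2863 kb from a proliferation peak, was 336 bp wide and reached 26 summit fragments at 36 h, then 20 at 72 h. A pair on chromosome 3, chr3:24634222-24634527 and chr3:24637004-24637347, lay 2244 and 2241 kb away, with 17 and 13 fragments at 36 h and 15 each at 72 h. On chromosome 1, chr1:118140731-118141193 lay 2066 kb away with 14 and 23 fragments, and chr1:116570825-116571704 lay 1888 kb away with 18 fragments at each later stage. The last of these was 880 bp wide, above the member median of 614 bp, and the others were narrower than that median.

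The typical far region was a single modest peak, stronger than the typical near region at 72 h and weaker than regions held by all 3 lists. The strongest peak of a region, meaning that with the highest fold enrichment, stands for the region in what follows. Fold enrichment compares the pileup of ChIP fragments with the local background, as the authors' peak caller gives it, and depends on that background as well as on the ChIP signal. Changes between stages are therefore given in summit fragments. At 36 h the median fold of members was 6.02, compared with 5.71 at near regions and 9.42 at regions of all 3 lists. At 72 h the corresponding medians were 6.47, 5.82 and 9.94. The median member thus stood above 52.0% of the 36 h peaks and 58.3% of the 72 h peaks. In summit fragments the members had a median of 21 at 36 h (quartiles 16 and 29) and 23 at 72 h (17 and 34).

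**Figure D2:**
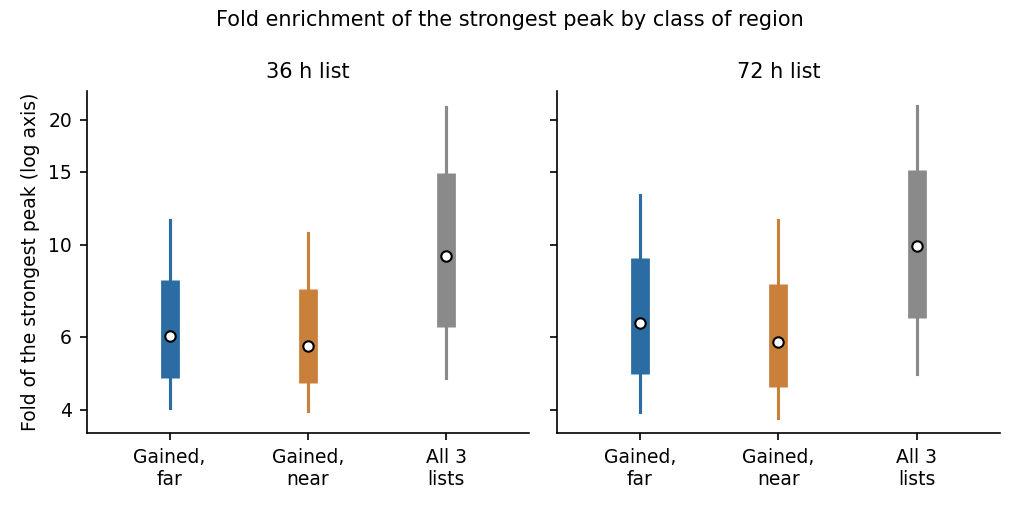
Fold enrichment of the strongest peak (y axis, log axis) within the 36 h list (left) and the 72 h list (right) for far gained regions, near gained regions and regions of all 3 lists. Circles are medians, thick bars quartiles and thin lines the 10% to 90% range over regions; the medians of the far regions, 6.02 and 6.47, sit between those of the other classes.

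A minority of members was among the strong peaks of the later lists. At 36 h, 459 members (4.29%, interval 3.92 to 4.69%) stood above 90% of that list, compared with 3.21% (2.94 to 3.51%) of near regions. At 72 h, 787 members (7.36%, 6.88 to 7.87%) did so, compared with 4.62% (4.29 to 4.97%) of near regions. Strong peaks were less frequent in members than over all regions with a peak at both stages. The 90% quantile of members stood above 83.8% of the 36 h peaks and 87.8% of the 72 h peaks. Over all such regions it stood above 93.7% and 94.3%. In both lists at once, 269 members (2.51%) passed the mark of 90%, while 569 (5.32%) stood among the lowest 25% of both lists. A fold of over 20 was reached by 110 members (1.03%) at 36 h and 203 (1.90%) at 72 h. Like counts over all regions are not given here. The class therefore runs from peaks at the limit of detection to some of the strongest of the differentiating cells.

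The 10 members with the highest fold at 72 h were strong at 36 h too, and all had more summit fragments at 72 h after scaling for depth. They were chosen by their 72 h value, which favours such a ratio, so it is a description of these regions. The strongest, chr3:96327606-96329059, had 92 summit fragments in the 36 h library and 105 in the 72 h library. Its fold was 28.9 at 36 h and 33.6 at 72 h, with summits 2 bp apart. The region chr8:11690270-11695005 had 73 and 104 fragments, in 4 peaks at 36 h and 1 peak of 4612 bp at 72 h. Both had the genome background at both later stages.

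The next 4 in the order of 72 h fold had from 56 to 87 summit fragments at 36 h. The region chr12:8898928-8900196 had 63 fragments in the earlier library and 99 in the later. The region chr15:84273601-84274796 had 87 and 101, and chr7:149784010-149786458 had 79 and 96. The region chr11:114673425-114678118 had 56 and 98 fragments, in 5 peaks covering 2998 bp at 36 h and 1 peak of 4694 bp at 72 h. Its summits were 1169 bp apart. At 72 h these 4 were within 5 fragments of each other. They are neighbours in the ranking by 72 h fold and had a similar local background there, so that closeness follows from the choice.

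Of the remaining 4, 2 were wide elements that were broken up at 36 h. The region chr17:31883175-31888157 had 4 peaks with 62 summit fragments at 36 h and 1 peak of 4983 bp with 93 fragments at 72 h. The region chr1:39511670-39516282 had 5 peaks with 66 fragments at 36 h and 1 peak of 4613 bp with 92 fragments at 72 h. In contrast, chr7:149681499-149686131 kept 2 peaks at each stage, with 78 and 91 fragments. Of the 10 it lay closest to a proliferation peak, at 13.2 kb. The region chr1:136057321-136059493 had nearly the same fragments at both stages, with 96 and 98. Had the acetylation of these 10 regions been equal per unit of depth and enrichment in proliferation, 45.1 to 76.5 summit fragments would have been expected there from the 36 h values and 70.3 to 81.0 from the 72 h values. A call there needed 18 fragments at the 95% quantile of the background of the proliferation peaks.

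The members with the highest fold at 36 h had between 74 and 100 fragments at 72 h, where most stood on a higher background. The first, chr4:123292992-123297081, had 109 fragments at 36 h and 98 at 72 h. Its local background, in the scaled pileup units of the peak caller, was 1.43 at 36 h and 3 at 72 h. On chromosome 11, the neighbouring members chr11:29707143-29708778 and chr11:29708960-29710565 had 99 and 96 fragments at 36 h and 74 and 100 at 72 h. The region chr2:26925410-26927732 had 94 and 91 fragments, and chr16:44237224-44239017 had 94 and 87. None of these 5 was lower at 72 h by 1.5 times after scaling for depth, and 3 of the 5 lay within 1.1 times. In 4 of the 5 the 72 h background was about 2 or 3 in those units.

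**Figure D3:**
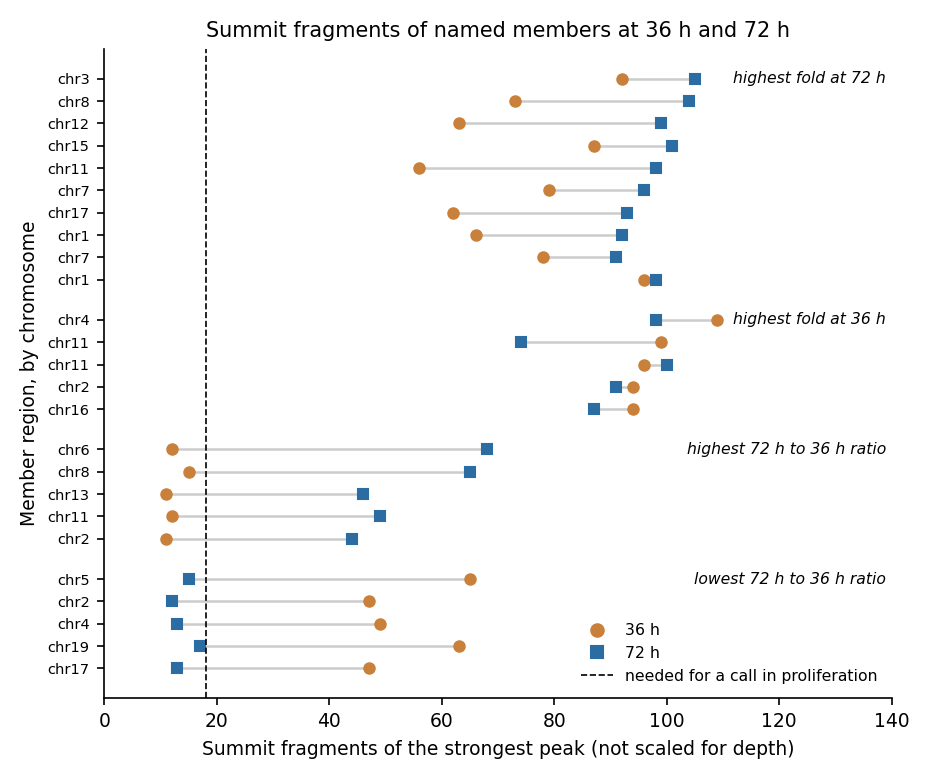
Summit fragments of the strongest peak (x axis, not scaled for depth) at 36 h (orange circles) and 72 h (blue squares) for 25 named members, one per line and labelled by chromosome. The dashed line marks the 18 fragments needed for a call in proliferation at the 95% quantile of the background there; the 15 members of highest fold lie far to its right at both stages, and the others cross it.

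The widest members were domains of several kilobases. The longest by 72 h peaks, chr4:128811817-128823347, had 11.4 kb under peaks at each later stage. Its 67 and 68 summit fragments were at summits 8471 bp apart. The region chr2:180096045-180105148 had 8.18 kb in 6 peaks at 36 h and 9.08 kb in 1 peak at 72 h. The regions chr4:135320407-135328709 and chr7:116852860-116860805 each had 9 peaks at 36 h and 2 at 72 h, with 6.64 and 6.04 kb at 36 h and 8.21 and 7.80 kb at 72 h. The region chr11:66887854-66894831 had 6.75 and 6.86 kb, with 54 and 92 fragments at summits 1001 bp apart. The other members were far narrower, with a median region width of 614 bp (quartiles 406 and 997), compared with 556 bp at near regions and 1119 bp at regions of all 3 lists.

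Members covered more of the genome at 72 h than at 36 h. Together they held 6589 kb under peaks at 36 h and 7696 kb at 72 h. The median length was 429 bp at 36 h and 517 bp at 72 h. The 72 h length was the greater in 6667 members (62.3%) and the smaller in 3991 (37.3%). The greater length at 72 h was found in 56.4% of near regions and 55.6% of regions of all 3 lists.

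Several narrow peaks at 36 h were joined into 1 peak at 72 h more often than the reverse. Of the members, 8361 (78.2%) had 1 peak at each stage, 1315 had several at 36 h and 1 at 72 h, and 662 had 1 at 36 h and several at 72 h. The first kind was thus 1.99 times as frequent as its reverse among members, 1.44 times among near regions and 1.45 times at regions of all 3 lists. Where 2 peaks at 36 h became 1 at 72 h (1077 members), the gap between them had a median of 123 bp, less than the 147 bp of the shortest merged region. No test of these shares was made, since each stage had 1 library.

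Where 1 peak was called at each stage, its summit was placed at nearly the same position, in members as in other regions. The summits of 36 h and 72 h were a median of 66 bp apart, and within 150 bp, about a nucleosome, in 6789 of 8361 members (81.2%). That share was 80.2% over all regions with 1 peak at each later stage, so it is not particular to members. The 2 peaks of such a region overlap by the choice, which limits how far apart their summits can lie. At near regions the median was 70 bp and at regions of all 3 lists 54 bp. Among regions of 500 to 1000 bp, a comparison at similar width, the medians were 73 bp for members, 83 bp for near regions and 55 bp for regions of all 3 lists.

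From 36 h to 72 h, more members had higher than lower acetylation at their summit, and the share was above that of regions with peaks at both stages in general. The rule does not use this ratio of summit fragments, scaled for depth. Its median was 1.20 in members, 1.12 in near regions and 1.15 in regions of all 3 lists. At least 1.5 times higher at 72 h were 2993 members (28.0%, interval 27.1 to 28.8%), compared with 21.7% of all 54072 regions with a peak at both stages. At least 1.5 times lower were 775 members (7.25%, 6.77 to 7.75%), compared with 5.51% of all such regions. Among near regions the shares were 20.5% higher and 7.26% lower. Of the members past 1.5 times in either direction, 79.4% were higher at 72 h, about the same as the 79.7% over all regions with a peak at both stages.

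The split depends on the scaling. Signal above background at regions of all 3 lists was 1.14 times as high per depth at 72 h as at 36 h, which moves every log2 ratio down by 0.19. With this also scaled out, 17.9% of members were at least 1.5 times higher and 12.4% lower, so that 59.0% of those past 1.5 times were higher, compared with 55.6% over all such regions. The corresponding shares were 12.1% and 13.7% in near regions and 13.0% and 10.4% in all regions with a peak at both stages. A member with the median 21 and 23 fragments has a ratio of 1.19 with an exact counting interval of 0.631 to 2.27, so single ratios of this size are within counting error.

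Within ranges of summed fragments, the higher values at 72 h were most frequent in strong members. The top range has no upper limit, so strength is not matched within it. As a class, regions of all 3 lists were stronger, with upper quartiles of 55 fragments at 36 h and 59 at 72 h, compared with 29 and 34 in members. Where the depth-scaled fragments of both stages summed to over 60, 36.0% of 3146 members, 27.6% of 3288 near regions and 17.7% of 18626 regions of all 3 lists were at least 1.5 times higher at 72 h. Between sums of 40 and 60 the shares were 33.1%, 26.1% and 27.8%. At sums up to 30 they were 6.50%, 5.90% and 5.95%, where the calling threshold in both lists limits how far a ratio can depart from 1. Between sums of 30 and 40 they were 19.0%, 14.5% and 18.7%. The share of members was thus above that of near regions in each range over 30, and above that of regions of all 3 lists by several percentage points only in the ranges over 40.

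The ratio was higher the farther a gained region lay from proliferation peaks. Its median was 1.09 within 5 kb of such a peak, 1.15 from 5 to 12.5 kb, 1.16 from 12.5 to 20 kb and 1.20 from 30 to 50 kb. It was 1.27 from 100 to 200 kb and 1.37 beyond 200 kb (424 members). The share at least 1.5 times higher at 72 h was 18.9% within 5 kb, 24.1% from 12.5 to 20 kb and 38.7% beyond 200 kb, while the share lower by that factor was 6.67%, 7.12% and 4.01%. With signal also scaled out, the median ratio was 0.956 within 5 kb and 1.20 beyond 200 kb. The quartiles of neighbouring bins overlap widely, so distance separates medians and not single regions.

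Strength at 36 h did not follow this order. The median 36 h summit fragments were 21 in every bin from 5 to 200 kb and 19 beyond 200 kb, whereas the 72 h medians were 22 from 12.5 to 20 kb and 25 beyond 200 kb. Between sums of 40 and 60 fragments, the median ratio was 1.39 in members over 100 kb away and 1.19 in those up to 30 kb away. With sums over 60 it was 1.42 and 1.29. The median local background at 72 h was 1.17 times the genome background from 12.5 to 20 kb and between 1.09 and 1.13 times in each bin beyond, and its part in the result was not tested.

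**Figure D4:**
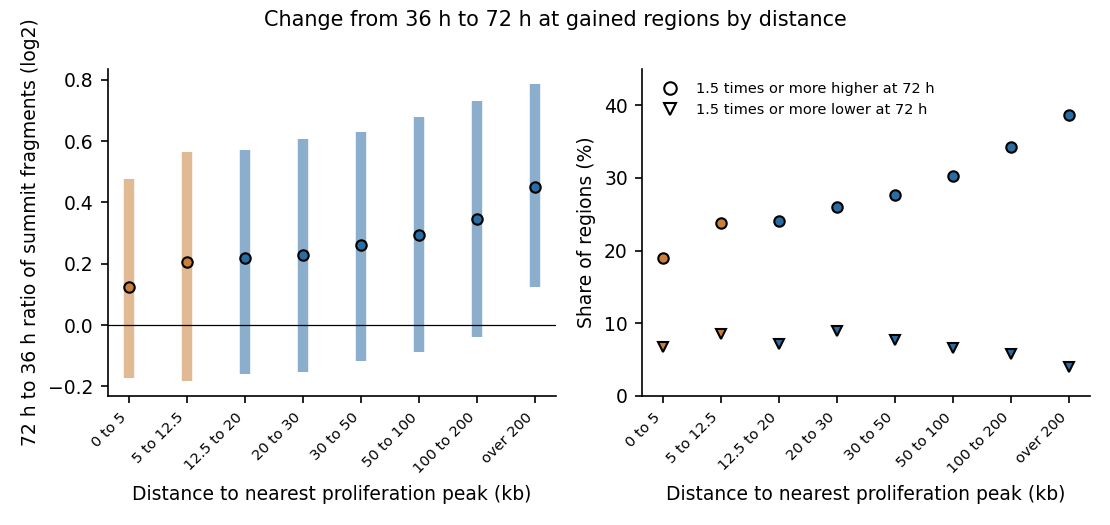
Change from 36 h to 72 h at gained regions in bins of distance to the nearest proliferation peak (x axes, kb; orange, near regions; blue, members). Left, log2 ratio of depth-scaled summit fragments, with medians as circles and quartiles as bars; right, share of regions at least 1.5 times higher (circles) or lower (triangles) at 72 h, where the share higher goes from 18.9% to 38.7%.

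The members of highest ratio went from peaks near the detection limit at 36 h to strong peaks at 72 h. They were named from the 4294 members with at least 30 summit fragments at either later stage. The highest, chr6:84187086-84188197, had 12 fragments at 36 h and 68 at 72 h, a ratio of 6.17 (exact counting interval 3.31 to 12.5). Its length under peaks was 191 bp at 36 h and 1112 bp at 72 h. The region chr8:73246349-73248649 had 15 and 65 fragments (ratio 4.72), and chr13:83215903-83216932, 715 kb from the nearest proliferation peak, had 11 and 46 (ratio 4.55). The summits of the chromosome 13 region were 482 bp apart.

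The other two of this group had similar values. The region chr11:94051108-94051773 had 12 and 49 fragments (ratio 4.45), and chr2:31943156-31944311 had 11 and 44 (ratio 4.36). In all 5 the peak covered between 147 and 316 bp at 36 h and between 666 and 2301 bp at 72 h. These regions were picked by the ratio itself and rest on 1 library per stage, so their ratios are a description.

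The members of lowest ratio showed the reverse pattern. The lowest, chr5:152089049-152090534, had 65 fragments at 36 h and 15 at 72 h, a ratio of 0.251 (interval 0.133 to 0.445). Its single peak of 1486 bp at 36 h was replaced by 3 peaks covering 753 bp at 72 h. The region chr2:27031481-27032136 had 47 and 12 fragments, and chr4:33070287-33070726 had 49 and 13. Both had a raised background pileup at 36 h, of 4 and 3 scaled units.

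The other two were at the genome background at both stages. The region chr19:7208465-7211455 had 63 and 17 fragments, with 1 peak of 2991 bp at 36 h and 3 peaks covering 2032 bp at 72 h. Its summits were 558 bp apart. The region chr17:28172767-28174462 had 47 and 13 fragments, with 1696 and 666 bp under peaks. Taking the peak with the most fragments in place of that with the highest fold, a setting chosen after seeing the data, the log2 ratio of these 2 regions was -1.27 and -0.97 in place of -1.77 and -1.73.

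A minority of members was strong enough that, with equal acetylation, a call in proliferation would have been nearly assured. If acetylation per depth and enrichment had been equal in proliferation, both later peaks of 1002 members (9.37%) would each have had at least a 99% chance of a call there. The share was 25% over all regions with a peak at both later stages and 7.12% over near regions. These 1002 had a median width of 1563 bp and median folds of 13.5 at 36 h and 14.8 at 72 h, compared with 572 bp, 5.71 and 6.15 for the other 9694. Only 21 members had later peaks so weak that both implied fewer than the 9 fragments needed at the genome background of the proliferation library. For most members, then, a call in proliferation was possible but not assured, and the lists alone do not show how much acetylation they had there.

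Many far regions lay close to each other, as did far regions called at 72 h only. Joined across gaps of up to 12.5 kb, the 10696 members formed 5477 runs, of which 2858 were single members, and 7838 members (73.3%) had another within that gap. Among regions equally far from proliferation peaks, the share was 70.2% of 12560 called at 72 h only and 57.4% of 6182 called at 36 h only. Runs of 5 or more numbered 329 and held 2262 members (21.1%), and 42 runs had 10 or more; regions called at 72 h only formed 361 runs of 5 or more. Members in runs of 5 or more were stronger and wider than single ones, with median 72 h folds of 7.41 and 5.67, median 36 h folds of 6.64 and 5.45, and median widths of 748 and 512 bp. Their share lower at 72 h by 1.5 times was 5.08%, compared with 9.27% of single members, while the shares higher were 29.0% and 26.3%.

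The largest run was on chromosome 13 (chr13:9295023-9376941), with 25 members over 81.9 kb. Its length under peaks was 16.6 kb at 36 h and 21.3 kb at 72 h, with folds from 3.18 to 17.8 at 72 h (median 6.54). The depth-scaled summit fragments were higher at 72 h in 21 of its 25 members, at least 1.5 times in 11, and in none lower by that factor. Any higher value at 72 h was found in 68.3% of all members and 67.7% of all regions with a peak at both stages. A value at least 1.5 times higher was found in 28.0% of all members and 21.7% of all such regions. One lower by that factor was found in 7.25% and 5.51%. The counts of the runs below have the same background. A further 12 regions called at 72 h only and 2 called at 36 h only lay within it.

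A run on chromosome 1 (chr1:133314758-133389707) had 22 members over 74.95 kb, with 14.95 kb under peaks at 36 h and 18.8 kb at 72 h. Of these members, 17 were higher at 72 h, 11 of them by 1.5 times. The other chromosome 1 run (chr1:66963878-67012143) was denser, with 17 members over 48.3 kb and 26.4 and 28.7 kb under peaks. Its median folds were 10.3 at 36 h and 11.4 at 72 h, and 16 of its 17 members were higher at 72 h. No proliferation peak lay within 54.0 kb of it.

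The remaining pair of runs had higher median folds at 72 h than the runs above, but not at 36 h than the denser chromosome 1 run. The run on chromosome 11 (chr11:114654172-114715295), which holds one of the 10 strongest members, had 17 members over 61.1 kb with 19.55 kb under peaks at 36 h and 25.8 kb at 72 h. The median fold of its members was 7.57 in the 36 h list and 13.4 in the 72 h list. Proliferation peaks were at least 66.7 kb off. The run on chromosome 8 (chr8:13179578-13227955) had 15 members over 48.4 kb, with 18.7 kb and 23.1 kb under peaks and median folds of 6.95 and 13.9. In none of the 5 runs was a member lower at 72 h by 1.5 times, compared with 5.08% of all members in runs of 5 or more. In the order given, the median ratios of 72 h to 36 h were 1.34, 1.47, 1.54, 1.39 and 1.37, all above the 1.20 of the members as a whole and the 1.15 of all regions with peaks at both stages.

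**Figure D5:**
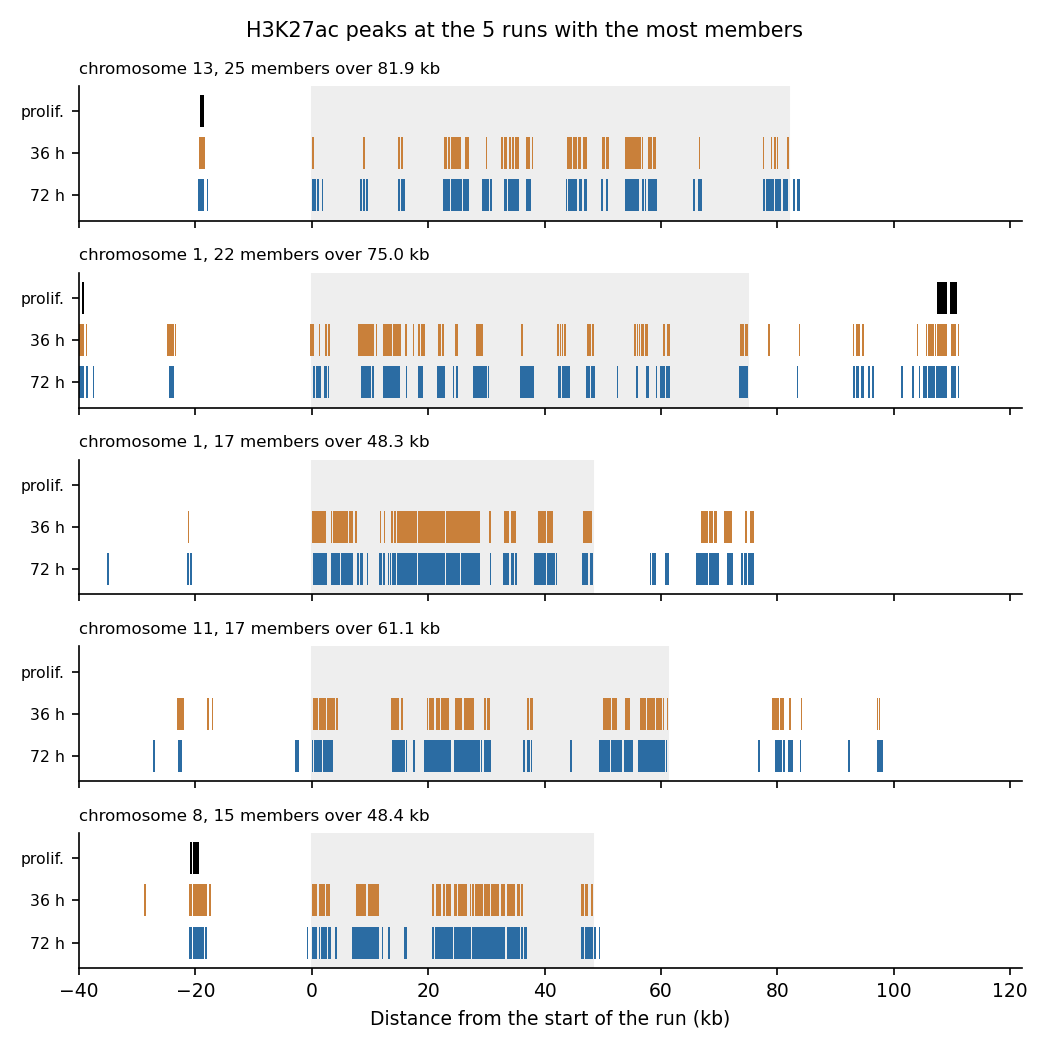
Peaks of the 3 lists at the 5 runs with the most members (x axis, distance from the start of the run in kb; rows, stage; grey, extent of the run). Each bar is a peak. The grey spans of 48.3 to 81.9 kb hold peaks of both later stages and none of proliferation, which the rule and the joining distance fix in advance.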

How the data were processed

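The data are 3 deposited peak lists in narrowPeak format, 1 per H3K27ac library, with peaks called per library. Per the submitters' processing notes, BWA, MACS2 and deepTools were used with build mm9, without versions or parameters stated in what was used here. Each deposited row gives the authors' fold (a ratio), −log10 p-value, −log10 q-value, summit offset and score; the score was not analysed. Fold and p together determine the whole number of fragments and the local background of each peak. These were chosen to return the deposited p and did so for 100% of peaks. On peaks simulated with the same formula from the recovered values, 100% of 3000 per list were recovered. Both checks show that the formula can be inverted, and cannot show that the fragment numbers or depths are the true ones. Depth per library is relative, from the genome background and the scale of 1 fragment. Regions were merged at 1 bp of overlap. Calculations used Python 3.11.15, numpy 2.4.6, scipy 1.17.1 and pandas 2.3.3.

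With 1 library per stage, no test and no p-value was computed; Wilson and exact intervals cover counting error only, and PCR copies are not independent molecules. The members, lists and comparisons were chosen with earlier results of these data known. Regions were named by a rule: the 10 of highest 72 h fold, and 5 each by 36 h fold, 72 h length, distance, and highest and lowest ratio among members with at least 30 fragments, the 5 largest runs, and 3 on each side of the distance limit. Gene lists, start sites and motifs need an annotation or genome of the build and were not used here. Alternatives are given in the closing section.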

Additional observations from a re-analysis of the deposited data

How the results depend on the processing

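The number of members, 10696, moved most with the distance and the threshold. It was 6803 at 25 kb, 3531 at 50 kb, 6987 when peaks were merged across gaps of up to 1000 bp, 6289 when only the later lists were held to a −log10 q of at least 5, and 5860 with lists equal in number. It stayed within 1.5 times at 5 kb, with a fold or a −log10 q limit in all 3 lists and with a merging overlap of 100 bp. The 1002 members with detectable peaks became 623 at a stricter chance of a call and 2196 at the median background. The median width was 1329 bp with 1000 bp gaps, where a region spans more peaks. The −log10 q limit in all lists, which removes weak peaks, gave median folds of 7.54 at 36 h and 8.16 at 72 h; at 72 h the median was 6.46 at 5 kb and 6.65 at 25 kb. Members at least 1.5 times higher at 72 h numbered 1913 with signal also scaled and 1027 at 2 times; those lower numbered 1330, 180 and, by length under peaks, 1443. Of 38 named members, 23 to 38 stayed members under the settings other than distance. The difference by distance kept its sign in 4 alternatives chosen after seeing the data, from 0.11 to 0.22 (log2) between members over 100 kb and up to 30 kb away, compared with 0.15. Windows at start sites, motifs and listed genes were not run. No paired analysis was possible because each stage had 1 library. Depth limits single regions: the median member has 21 and 23 summit fragments.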

Other observations

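Between proliferation peaks there were 13006 intervals longer than 25 kb, and 3821 of them (29.4%) held at least 1. Members were unevenly spread over these: 600 intervals (4.61%) with 5 or more members held 43.8% of all members. These intervals were picked by their own count, and no like share is given here for far regions called at a single later stage. The fullest lay on chromosome 13 (chr13:46062392-46764950), with 32 members over 703 kb, followed by the interval around the largest run on the same chromosome, with 31 over 486 kb. An interval of 147 kb on chromosome 1 (chr1:133275535-133422206) held 26. Long intervals were not fuller in proportion. Members per Mb, counted over the part more than 12.5 kb from either end, went from 20.5 in intervals of 25 to 50 kb to 0.718 in those over 1000 kb, and 47.3% of the latter held a member.

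Regions called at a single later stage, equally far from proliferation peaks, were often neighbours of members. Of 12560 such regions called at 72 h only, 6208 (49.4%) lay within 12.5 kb of a member, and of 6182 called at 36 h only, 3248 (52.5%). Among far regions with a 36 h peak, 63.4% (Wilson interval 62.6 to 64.1%) also had a 72 h peak, compared with 55.2% (54.6 to 55.8%) of near ones. In the other direction, 46.0% (45.4 to 46.6%) of far regions with a 72 h peak had one at 36 h, compared with 50.1% (49.5 to 50.6%) of near ones.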
